A study of Mus musculus with 18 samples.

Results

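Chemokines and their receptors were followed in the mouse thymus after antibody blockade of DLL4. The set holds every gene on the array whose name marks it as a CC, CXC, XC or CX3C chemokine or as a receptor for them, and membership rests on the gene name, while the choice of this gene family was made with earlier results of these data known. That gave 47 genes. Of these, 45 gave signal well over background on a minimum of 2 among the 18 arrays, as did 23355 genes in all. The 45 are 15 receptors and 30 ligands. Cxcl5 and Cxcl11 did not pass. Ccr8, Cxcr5, Ccl21a and Ccl22 have no probe under those names on the array and were not analysed here as members.

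Chemokines are small secreted proteins that steer cells by binding receptors of the G protein-coupled family. In the thymus, stromal CCL25, CXCL12, CCL19 and CCL21 draw in progenitors and guide developing T cells through the receptors CCR9, CXCR4 and CCR7. Mature innate lymphocytes, activated T cells and myeloid cells instead carry receptors such as CXCR3, CXCR6 and CCR2, and several of them secrete XCL1, CCL3, CCL4 and CCL5. DLL4 is the ligand on thymic epithelium that engages Notch1 on incoming progenitors and commits them to the T cell lineage.

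C57BL/6 mice received an anti-DLL4 monoclonal antibody or an isotype control antibody, and thymi were taken 2 weeks later. All groups share the strain and the tissue, no gene was altered, and the age, dose and number of injections are not given in the sources used here. The samples of unsorted thymocytes number 3 with anti-DLL4 and 4 with the control antibody. The corresponding numbers are 3 and 3 for DN cells (sorted as CD4-CD8-) and 3 and 2 for DN1 cells (sorted as CD4-CD8-CD44+CD25-). DN1 cells were gated by surface markers alone, so this gate can hold B cells, NK cells and dendritic cells as well as T cell progenitors. The series text speaks of 4 animals per antibody, and no label ties a sample to an animal, so the p-values below measure the spread between these samples, which may in part be technical. In such bulk samples fewer cells of a type and less RNA per cell cannot be told apart.

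Levels are log2 of the array's processed signal over the 75th percentile of that array, so that 0 is the 75th percentile. Levels of different genes come from different probes and were not set against each other. Differences are anti-DLL4 minus isotype control, given relative to the median difference of all genes tested (-0.47 in thymocytes, -0.68 in DN cells and -0.01 in DN1 cells) with the standard error of the limma fit. The limma test itself is of the difference before that median is taken off, and a gene counts as called at an adjusted p under 0.05. Where groups are said not to overlap, this describes the named gene only. The share of all genes without overlap was not counted for any comparison. Before scaling, the 75th percentile ranged from 260.2 to 4295.4 over the arrays, and 59.9% to 84.0% of spots were well above background. The control DN arrays were dim: their 75th percentiles were 260.2, 337.9 and 675.5, against 887.7, 1076.8 and 741.3 on the anti-DLL4 DN arrays. Signal strength thus moved with treatment in DN cells, and its part in the DN results was not tested beyond leaving out the 2 dimmest control arrays. The 12 T lineage genes were well above background on every array. The 6 genes of the CD4 and CD8 stage were so as well, DN and DN1 arrays included, with summed levels of 163 to 194 times the 75th percentile in control DN samples and 484 to 1680 in control thymocytes.

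Promoters are printed for 5 genes on which the results turn: Cxcr6 and Ccr9, neighbours on chromosome 9 that moved in opposite directions in DN cells, Xcl1 and Cxcr3, called higher in both thymocytes and DN cells, and Cxcl10, a gene known for its induction by interferon. Each is the 250 bases before the annotated start in RefSeq GRCm38.p6, read 5′ to 3′ on the strand of the gene: Cxcr6 from chr9:123806227-123806476 (plus strand), Ccr9 from chr9:123766961-123767210 (plus), Xcl1 from chr1:164935523-164935772 (minus), Cxcr3 from chrX:101734148-101734397 (minus) and Cxcl10 from chr5:92348890-92349139 (minus). Capitals mark a match to a motif searched on both strands.
Cxcr6: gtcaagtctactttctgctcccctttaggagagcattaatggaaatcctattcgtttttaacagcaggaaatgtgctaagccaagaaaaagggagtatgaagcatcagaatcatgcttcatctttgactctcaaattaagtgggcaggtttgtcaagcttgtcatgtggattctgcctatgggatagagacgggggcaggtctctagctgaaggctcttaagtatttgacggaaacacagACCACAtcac
Ccr9: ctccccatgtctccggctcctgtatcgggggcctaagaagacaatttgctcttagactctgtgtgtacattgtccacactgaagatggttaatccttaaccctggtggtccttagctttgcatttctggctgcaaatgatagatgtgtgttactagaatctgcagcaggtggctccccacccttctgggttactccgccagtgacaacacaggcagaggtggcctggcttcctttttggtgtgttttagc
Xcl1: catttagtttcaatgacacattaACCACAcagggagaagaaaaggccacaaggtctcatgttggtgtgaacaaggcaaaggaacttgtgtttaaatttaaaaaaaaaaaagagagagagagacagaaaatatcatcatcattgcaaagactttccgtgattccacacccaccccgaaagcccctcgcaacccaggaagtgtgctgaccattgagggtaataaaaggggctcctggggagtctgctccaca
Cxcr3: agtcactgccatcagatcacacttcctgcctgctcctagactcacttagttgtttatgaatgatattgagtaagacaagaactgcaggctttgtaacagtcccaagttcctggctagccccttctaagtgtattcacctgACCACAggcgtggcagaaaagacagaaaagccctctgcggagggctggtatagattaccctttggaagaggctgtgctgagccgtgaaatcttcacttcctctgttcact
Cxcl10: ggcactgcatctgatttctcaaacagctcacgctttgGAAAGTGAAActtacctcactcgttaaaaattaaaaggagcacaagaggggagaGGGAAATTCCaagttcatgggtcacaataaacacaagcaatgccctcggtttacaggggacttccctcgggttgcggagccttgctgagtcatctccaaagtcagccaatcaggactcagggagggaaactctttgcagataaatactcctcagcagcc

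The capitals in Cxcr6, Xcl1 and Cxcr3 are TGTGGT, the core bound by RUNX factors, read on the opposite strand as ACCACA. It lies 10 to 5 bases before the start of Cxcr6, 227 to 222 before that of Xcl1 and 110 to 105 before that of Cxcr3. In Cxcl10 the capitals are an interferon-stimulated response element (GAAA, any 2 bases, GAAA; 213 to 204 bases before the start) and an NF-kB motif (GGGA, any 2 bases, TTCC; 159 to 150 bases before it). The Ccr9 window holds none of the motifs searched, which were these 3, TGGGAA for the Notch partner RBPJ, and TATAAA for the TATA box. They were chosen after these promoters had been looked at, and looser spellings of the motifs were not searched. Of the 45 genes, 31 had a promoter in the RefSeq table by symbol, with 33 promoters between them. A gene was counted when any of its promoters matched, while the shares set beside the counts are per promoter. The RUNX core was in 8 of the 31, against 14.05% of 32851 promoters of the same length. RBPJ letters were in 9 of 31 against 21.59%, and TATA letters in 10 of 31 against 12.37%. The interferon element was in 3 of 31 (Ccl19, Cxcl10 and Cxcl14) against 2.98%, and the NF-kB letters in 3 of 31 (Ccr3, Cxcl1 and Cxcl10) against 1.21%. A match is a description of letters and not of a bound site.

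**Figure D1:**
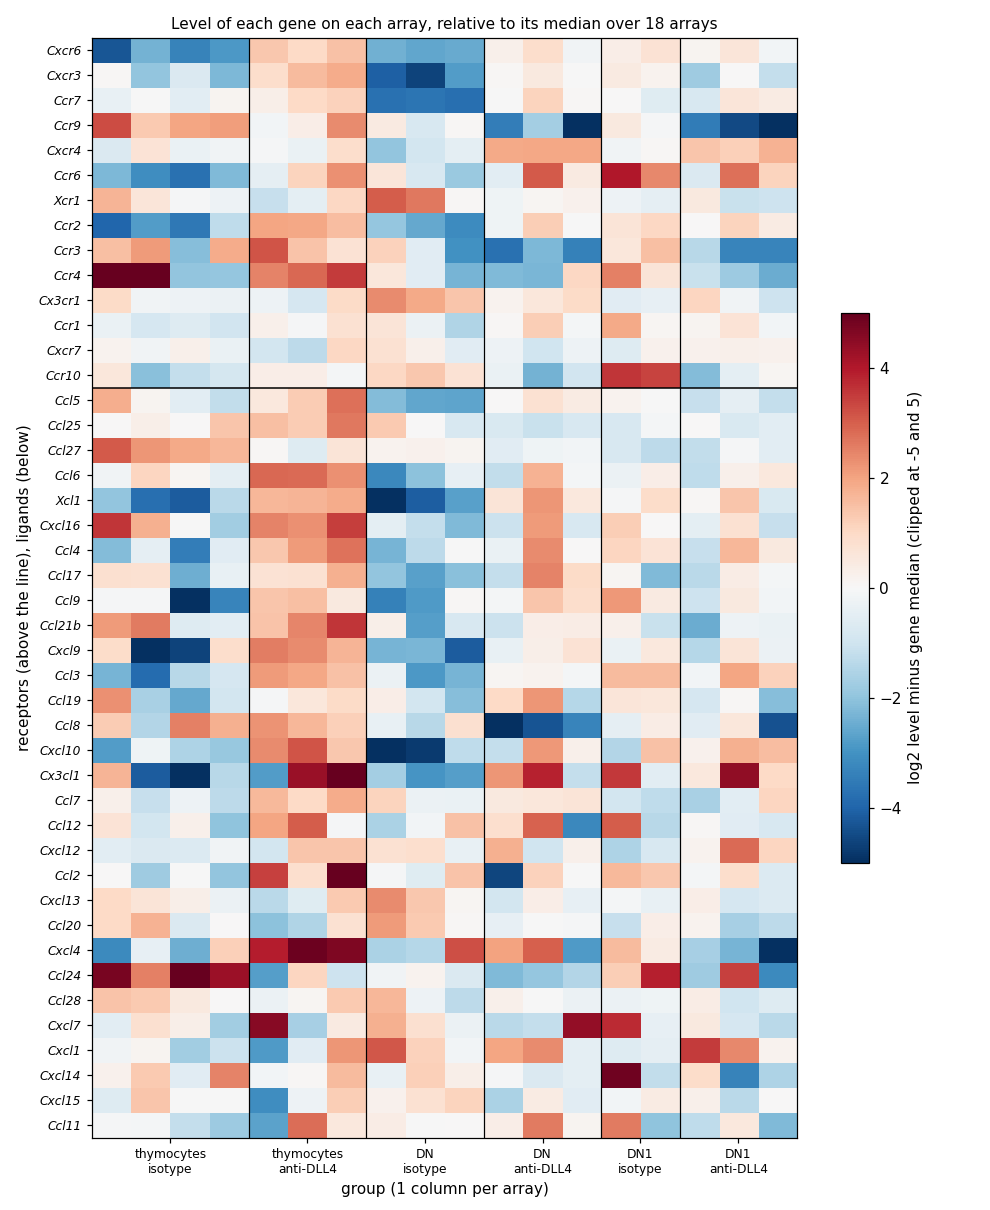
Levels of the receptor and ligand genes on each of the 18 arrays, as log2 level minus that gene's median over the arrays, with receptors above the line and ligands below it. Columns are grouped by population and antibody. Cxcr6 and Ccr2 are low on all 7 control arrays of thymocytes and DN cells and higher on every other array.

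In total thymocytes, 4 receptors and 2 ligands rose after anti-DLL4 and 1 ligand fell, of 43 genes tested. The receptors included Ccr2, Cxcr6 and Cxcr3, which guide monocytes and effector or innate lymphocytes, and the ligands were Xcl1 and Ccl3. Ccl27 fell. Over all genes tested, 1.14% were called higher and 0.379% lower. The median difference of the 43 was 1.87 (1.21 with normexp background), and 36 of them lay above the median of all genes. An unadjusted p under 0.05 was found for 48.8% of the 43, against 15.6% of all genes.

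Cxcr6, the receptor for CXCL16, stood at 6.07, 5.72 and 6.17 after anti-DLL4 and at 0.46, 2.36, 1.37 and 1.83 in the controls. Every treated array was above every control array by more than 3 log2 units. The difference was 4.95 ± 0.47 (SE, 30.9-fold, limma adjusted p = 0.000498). Ccr2, the monocyte receptor for CCL2, was measured at 0.18, 0.11 and -0.26 against -5.77, -4.59, -5.39 and -3.08, where 3 of the 4 controls were well above background. The difference was 5.19 ± 0.61 (36.5-fold, adjusted p = 0.00109), again with no overlap. The 3 treated values of each of these receptors lay within 0.5 log2 units of one another, while the controls spread more widely.

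Cxcr3 binds the interferon-induced ligands CXCL9 and CXCL10. It was at 5.51, 6.19 and 6.49 after anti-DLL4 and at 4.68, 2.67, 3.89 and 2.36 in the controls, where the highest control came within 1 log2 unit of the lowest treated array. Its difference of 3.13 ± 0.63 (8.75-fold) was near the threshold (limma adjusted p = 0.0478). Ccr6, a receptor on B cells and innate-like T cells, was at -0.87, 0.70 and 1.87 against -2.67, -3.54, -4.16 and -2.62, with no overlap and a difference of 4.29 ± 0.99 (adjusted p = 0.0676). The thymic homing receptors Ccr7 and Cxcr4 differed by 1.48 ± 0.46 (adjusted p = 0.307) and 0.78 ± 0.48 (adjusted p = 0.749). Other Cxcr4 probes gave -0.18 and -0.15.

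Xcl1 encodes the chemokine by which NK cells and activated CD8 T cells attract cross-presenting dendritic cells. It was at 3.98, 4.01 and 4.16 after anti-DLL4 against 0.32, -1.47, -1.85 and 0.95, a difference of 5.04 ± 0.95 (32.9-fold, limma adjusted p = 0.0266). The treated arrays were tightly grouped and lay about 3 log2 units above the highest control. Its receptor Xcr1, a marker of those dendritic cells, was at -2.94, -2.29 and -0.77 against -0.11, -1.21, -1.87 and -2.06. These overlapped, and the difference was -0.22. Ccl3, an inflammatory attractant of monocytes and T cells, was at 0.44, 0.28 and -0.20 against -4, -5.52, -3.06 and -2.52, a difference of 4.42 ± 0.73 (21.4-fold, adjusted p = 0.0143).

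Ccl4, a close relative of Ccl3, was at 1.82, 2.62 and 3.20 against -1.69, 0.05, -2.99 and -0.10. The groups did not overlap, and the difference of 4.2 ± 0.89 lay at the edge of the threshold (limma adjusted p = 0.0501). Ccl5, a product of effector T cells and NK cells, was at 6.46, 7.21 and 8.69 against 7.75, 6.10, 5.42 and 4.72. Here 1 control array was higher than 2 of the treated ones, and the difference was 1.92 ± 0.65 (adjusted p = 0.294). The CXCR3 ligands Cxcl9 and Cxcl10 differed by 5.18 ± 1.49 (adjusted p = 0.133) and 4.38 ± 1.04 (adjusted p = 0.0741), neither of them called. For Cxcl10 the treated arrays, at 0.07, 0.84 and -0.96, were all above the controls at -5.10, -2.54, -3.87 and -4.21. For Cxcl9 the controls split, with 0.00 and -0.06 on 2 arrays and -8.16 and -5.56 on the other 2.

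Ccl27, best known as a skin chemokine, was the ligand that fell, from 4.77, 3.90, 3.61 and 3.38 in the controls to 1.76, 1.05 and 2.34. The difference was -1.73 ± 0.46 (3.32-fold, limma adjusted p = 0.027), and a further probe gave -1.72. Ccl27, Ccl19 and Ccl21b lie among near-identical gene copies on chromosome 4, so which copy their probes report is uncertain. Ccl24, an eotaxin, was at -8.30, -4.46 and -6.58 against -0.80, -3.01, 0.69 and -1.25 and just missed the threshold (-4.88, adjusted p = 0.0552). It was well above background on 1 of the 3 treated arrays and on all 4 controls. Cxcl4, which is platelet factor 4, was at -0.42, 0.57 and 0.33 against -7.53, -4.75, -6.78 and -3.16 (6.19, adjusted p = 0.068), and 3 of those 4 controls were well above background. The stromal ligands Ccl25 and Cxcl12 differed by 1.85 ± 0.56 (adjusted p = 0.24) and 1.63, and neither passed.

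Cxcr6 and Ccr2 kept their calls under all 29 alternative settings, which include leaving out each of the 18 arrays. The calls of Ccl3, Xcl1, Cxcr3 and Ccl27 did not hold throughout, although none changed sign. Ccl3 had an adjusted p of 0.0621 without anti-DLL4 array 1 and 0.0668 without array 2. Xcl1 had an adjusted p of 0.0792, 0.0906 and 0.0645 without anti-DLL4 arrays 1, 2 and 3, and of 0.0672 and 0.0715 without control arrays 2 and 3. Cxcr3 was called in 11 of the 29, with 0.0811, 0.167 and 0.105 without anti-DLL4 arrays 1, 2 and 3, and 0.117, 0.0719 and 0.0777 without control arrays 2, 3 and 4. Ccl27 had 0.0809 and 0.157 without anti-DLL4 arrays 1 and 2, and 0.0666, 0.0577 and 0.0548 without control arrays 1, 2 and 3. On the 3 slides that carried a treated and a control thymocyte sample, the unfitted differences were 6.94, 4.22 and 4.42 for Cxcr6 and 7.28, 5.57 and 4.75 for Ccr2. They were 4.99, 6.35 and 5.63 for Xcl1, 2.16, 4.39 and 2.22 for Cxcr3, 5.76, 6.66 and 2.48 for Ccl3, and -1.69, -1.99 and -1.65 for Ccl27. The paired arrays differed in brightness. Their 75th percentiles, treated against control, were 4295.4 against 524.0, 2857.0 against 685.9, and 442.8 against 2169.2. The part of brightness in the thymocyte results was not tested.

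Marker genes of other cell types moved in the same samples. Of 9 NK cell markers 4 were called higher, and their summed level, in multiples of the 75th percentile of the array, was 157 to 229 after anti-DLL4 against 14.5 to 43 in the controls. Of 10 B cell markers 8 were called higher (111 to 412 against 25.1 to 51.2, where Pax5 was above background in none of the control samples), and of 7 conventional dendritic cell markers tested 2 (99.5 to 111 against 26.6 to 44.5). Among 8 plasmacytoid dendritic cell markers 1 was called higher (161 to 329 against 122 to 261), and among 8 monocyte markers none was called (92.3 to 191 against 47.2 to 140). None of the 12 T lineage genes was called (420 to 781 against 697 to 1910). No marker was called for neutrophils (28.2 to 79 against 20.3 to 47.3) or for thymic epithelium, the source of Ccl25 (19.8 to 28.4 against 12.2 to 16.6). A summed level rests mostly on the brightest genes of a list. The mean log2 level of the epithelium list overlapped between the groups (0.15 to 0.48 against -0.11 to 0.51). Of the fibroblast and endothelium list 1 was called lower, and of the DN2 and DN3 stage list 1 higher. The part of these cell types in the chemokine results was not tested.

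In DN cells, 5 receptors and 3 ligands rose and 1 receptor fell, of 39 genes tested. The receptors that rose were Ccr7 and Cxcr4, which serve thymic and lymph node homing, together with Cxcr3, Cxcr6 and Ccr2. The ligands were Xcl1, Ccl5 and Cxcl10, and the receptor that fell was Ccr9. Of all genes tested, 2.74% were called higher and 1.58% lower. The median difference of the 39 was 1.66 (0.81 with normexp background), and 30 lay above the median of all genes. An unadjusted p under 0.05 was found for 46.2% of the 39, against 30.6% of all genes. Of the 6 genes higher in thymocytes and the 8 higher in DN cells, 4 were the same: Ccr2, Cxcr3, Cxcr6 and Xcl1. The overlap among all genes called higher (240 in thymocytes and 576 in DN cells) was not counted.

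Ccr7, the receptor for CCL19 and CCL21, was at 4.20, 5.34 and 4.29 after anti-DLL4 and at 0.49, 0.59 and 0.46 in the controls. The control values were nearly identical, and the lowest treated array was more than 3 log2 units above them. The difference was 4.77 ± 0.5 (27.3-fold, limma adjusted p = 0.000351), and a further probe gave 5.07. Cxcr4, the receptor for CXCL12, was at 3.21, 3.26 and 3.27 against -0.64, 0.43 and 0.86, a difference of 3.7 ± 0.51 (13.0-fold, adjusted p = 0.0035). Its treated arrays were the closest to each other among the genes called, and other probes of Cxcr4 gave 3.12 and 3.17. Cxcr3 was at 4.67, 5.11 and 4.62 against 0.55, -0.02 and 1.82, a difference of 4.7 ± 0.67 (26-fold, adjusted p = 0.00346). Cxcr6 was at 4.97, 5.6 and 4.56 against 2.32, 2.14 and 2.21, a difference of 3.5 ± 0.5 (11.3-fold, adjusted p = 0.00507). None of these 4 receptors overlapped between the groups. They were picked as called, so the separation adds no support, and the share of all genes without overlap was not counted.

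Ccr2 was at -2.02, -0.56 and -1.84 against -3.74, -4.36 and -4.94 and differed by 3.55 ± 0.65 (11.7-fold, limma adjusted p = 0.0221). Ccr9, the receptor for CCL25 and a hallmark of cells settling in the thymus, ran the other way. It was at 0.71, 2.47 and -1.12 after anti-DLL4 against 4.61, 3.36 and 4.22, a difference of -2.7 ± 0.88 (6.5-fold lower, adjusted p = 0.0424). All treated arrays were below all controls, and the treated arrays spread over more than 3 log2 units. A further Ccr9 probe gave -2.02.

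Xcl1 had the largest fold among the DN genes called, 90.5-fold. It was at 2.94, 4.53 and 2.82 after anti-DLL4 against -4.95, -1.81 and -0.42, a difference of 6.5 ± 1.01 (limma adjusted p = 0.00445). Its control values spread over more than 4 log2 units, with the lowest on the dimmest array. Ccl5 was at 5.98, 6.70 and 6.37 against 3.78, 3.36 and 3.31, a difference of 3.55 ± 0.7 (11.7-fold, adjusted p = 0.0302), and another probe gave 3.99. Cxcl10 was at -3.52, -0.16 and -2.07 against -7.60, -7.09 and -3.57 (4.85 ± 1.12, adjusted p = 0.0474). It was well above background on 1 of the 3 control arrays and no fold is given. The call held in 12 of 29 settings, and the highest control lay beside the lowest treated array. Ccl3 and Ccl4 differed by 2.58 ± 0.79 (adjusted p = 0.126) and 2.57 ± 0.95 (adjusted p = 0.189).

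Of the other ligands in DN cells, Ccl8 and Ccl17 came nearest to the threshold. Ccl8, a monocyte attractant, was at -7.42, -6.10 and -5.06 against -2.15, -3.14 and -0.95 and differed by -3.43 (limma adjusted p = 0.0573), with no overlap. Ccl17, a dendritic cell product that binds CCR4, was at -0.66, 3.01 and 1.47 against -1.44, -2.20 and -1.57 and differed by 3.69 (adjusted p = 0.0823). Its receptor Ccr4 was at -5.73, -5.79 and -2.48 against -2.96, -4.06 and -5.84, which overlapped. Ccl27 differed by 0.2 ± 0.5 in DN cells. Ccr10, the receptor for CCL27 and CCL28, was well above background on none of the treated and 1 of the control DN arrays and was not tested there.

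Ccr7 kept its call in DN cells under all 29 settings. Without control arrays 1 and 2 together, the dimmest ones, its difference was 4.5 (limma adjusted p = 0.0207), and the other calls were lost with 1 control array left, which was assumed to vary as the other groups do. The differences were then 3.33 for Cxcr3 (adjusted p = 0.231), 2.73 for Cxcr4 (0.166), 3.18 for Cxcr6 (0.126), 3.81 for Ccr2 (0.158), 4.21 for Xcl1 (0.203), 3.39 for Ccl5 (0.312) and -3.18 for Ccr9 (0.371). For Cxcl10 it was 2.0 (0.879). Leaving out any 1 array did not end the calls of Cxcr3, Cxcr4, Cxcr6 and Xcl1. Most of these 4 calls were lost with the contrasted groups alone, where 2 members were called higher, Ccr7 among them. Ccr2 had an adjusted p of 0.0914, 0.0583 and 0.0729 without anti-DLL4 array 2, anti-DLL4 array 3 and control array 2. Ccl5 had 0.0717, 0.0955 and 0.0943 without anti-DLL4 arrays 1, 2 and 3, and 0.0684 and 0.102 without control arrays 1 and 2. Cxcl10 had 0.0514, 0.145 and 0.118 without anti-DLL4 arrays 1, 2 and 3, and 0.207 and 0.179 without control arrays 1 and 2. Ccr9 differed by -1.76 without anti-DLL4 array 3 (adjusted p = 0.155) and had an adjusted p of 0.118, 0.152 and 0.0753 without anti-DLL4 array 1, control array 1 and control array 2. With another background correction (normexp) Ccr2 differed by 1.27 (adjusted p = 0.794) and Cxcl10 by 1.31 (adjusted p = 0.819). The slide that carried both antibodies held 1 DN array of each. These were the brightest anti-DLL4 DN array (75th percentile 1076.8) and the dimmest control DN array (260.2). Unfitted differences between these arrays were 5.71 for Ccr7, 4.76 for Cxcr4, 5.42 for Cxcr3, 4.14 for Cxcr6 and 4.03 for Ccr2. For Xcl1, Ccl5, Cxcl10 and Ccr9 they were 10.34, 3.78, 8.29 and -1.28.

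Markers of B cells, dendritic cells and NK cells were also higher in DN cells. Of 10 B cell markers 9 were called higher, with a summed level of 708 to 1020 after anti-DLL4 against 41 to 48.2 in the controls. For conventional dendritic cells 4 of 7 were called higher (226 to 254 against 7.71 to 13.3), for plasmacytoid dendritic cells 3 of 8 (504 to 530 against 59.2 to 349, where Siglech was above background in none of the control samples), for NK cells 4 of 9 (76.1 to 89.5 against 9.03 to 15.6) and for monocytes 2 of 8 (11.2 to 22.2 against 5.31 to 9.84). Of 12 T lineage genes 1 was called lower (105 to 294 against 414 to 758), as were 2 of 6 genes of the DN2 and DN3 stages (16.3 to 49.9 against 70.6 to 117), 1 of the CD4 and CD8 stage list and 1 of the fibroblast and endothelium list. No neutrophil or thymic epithelium marker was called. The mean log2 level of the monocyte list overlapped between the groups (-2.24 to -0.56 against -1.98 to -1.9), unlike its summed level. The part of all these cell types in the DN results was not tested.

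**Figure D2:**
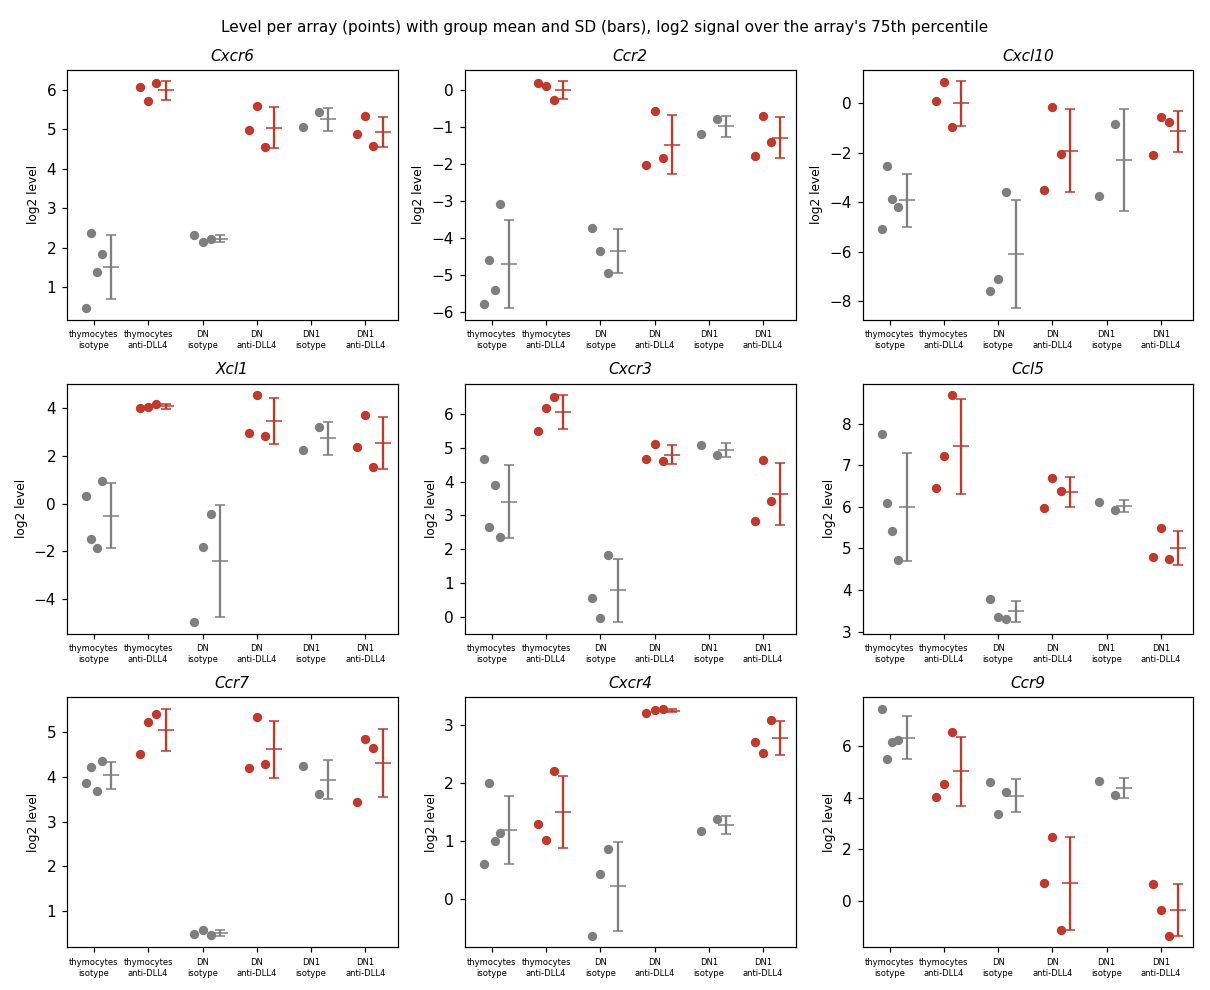
Levels of 9 genes on each array (points, log2 signal over the 75th percentile of the array) with the group mean and SD (bars), grey for isotype control and red for anti-DLL4. In thymocytes and DN cells the treated arrays of Cxcr6 and Ccr2 lie above all controls, while in DN1 cells both antibodies share 1 range, and Ccr9 is lower in treated DN and DN1 cells.

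In DN1 cells none of the 45 genes was called in either direction by limma. Of them 7 (15.6%) had an unadjusted p under 0.05, against 4.68% of all genes. Over all genes tested 0.0406% were called higher and 0.0586% lower. The median difference of the 45 was -0.51, and 13 lay above the median of all genes. The 4 genes called in both other populations were measured here as follows. Cxcr6 was at 4.87, 5.34 and 4.57 after anti-DLL4 and at 5.05 and 5.45 in the controls, a difference of -0.31 ± 0.56. Ccr2 was at -1.77, -0.69 and -1.40 against -1.18 and -0.78, a difference of -0.3 ± 0.73. Xcl1 was at 2.37, 3.68 and 1.54 against 2.24 and 3.21, a difference of -0.19 ± 1.13. The ranges of these 3 genes overlapped, and with 2 control arrays the errors do not show that the levels are equal. Cxcr3 was at 2.84, 4.63 and 3.42 against 5.08 and 4.79, so that all treated arrays lay below both controls, with a difference of -1.3 ± 0.75. Ccl5, called in DN cells, was likewise lower on all treated arrays, at 4.80, 5.49 and 4.74 against 6.12 and 5.92 (-1 ± 0.78).

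Ccr9 was the receptor with the largest DN1 difference. It was at 0.65, -0.36 and -1.36 after anti-DLL4 against 4.66 and 4.10, a difference of -4.73 ± 0.98 that did not pass (limma adjusted p = 0.101). All 3 treated arrays were more than 3 log2 units below both controls, a further probe gave -5.91, and 2 slides gave unfitted differences of -4.72 and -5.31. With the mean of all probes of the gene the difference was -5.32 and passed (adjusted p = 0.0282). Ccr10 was at -8.16, -6.47 and -5.89 against -2.39 and -2.60, a difference of -4.34 ± 0.8 at the edge of the threshold (adjusted p = 0.0522), with 2 of the 3 treated arrays well above background. It passed with a stricter filter on dim probes (0.0475), the mean of all probes (0.0476) and the deposited ratio table (0.0492). Cxcr4 was at 2.71, 2.52 and 3.09 against 1.17 and 1.38, with no overlap, and differed by 1.5 ± 0.57 (adjusted p = 0.778). Its ligand Cxcl12 differed by 2.54 (adjusted p = 0.699), while other Cxcl12 probes gave 4.49 and -2.96, so its direction depends on the probe.

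No marker list had a member called in DN1 cells. The summed B cell level was 489 to 753 after anti-DLL4 against 265 to 484 in the controls, the NK cell level 33.5 to 99.7 against 89 to 92.1 and the conventional dendritic cell level 172 to 323 against 107 to 191. Monocyte markers summed to 7.79 to 20.1 against 32.5 to 48.5, and T lineage genes to 46.4 to 122 against 302 to 401. Neutrophil markers, whose median difference of -4.91 was the lowest of the lists, summed to 0.395 to 6.64 against 7.94 to 56.6, and genes of the DN2 and DN3 stages to 6.75 to 22 against 23.3 to 23.9. Mean log2 levels overlapped between the groups for the neutrophil list (-7.45 to -0.92 against -1.02 to 3.04). They also did for the DN2 and DN3 list (-0.63 to 0.94 against 0.74 to 1.28). The part of all these cell types in the DN1 values was not tested.

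**Figure D3:**
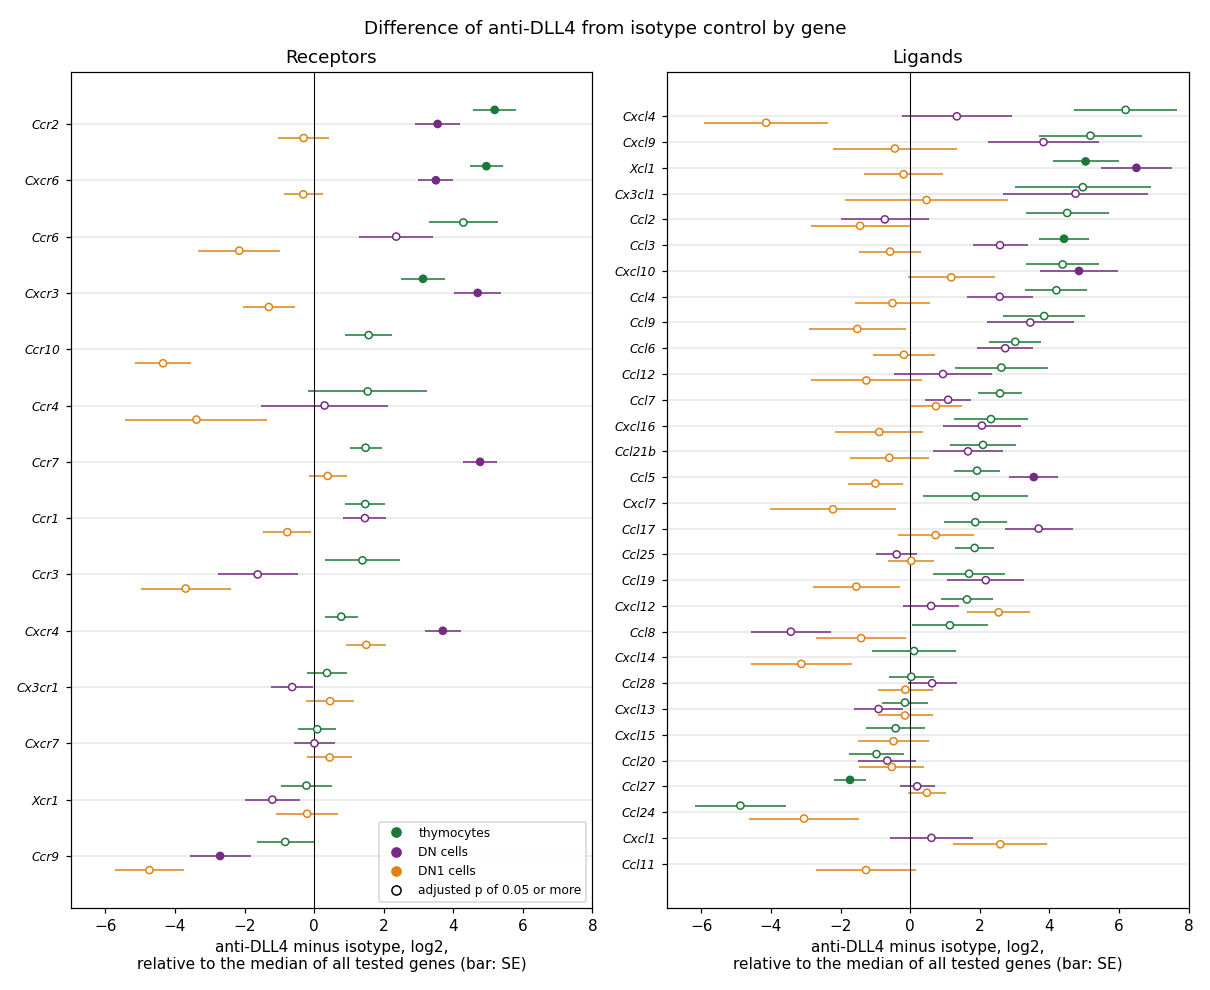
Difference of anti-DLL4 from isotype control for receptors and ligands in thymocytes, DN cells and DN1 cells (log2, relative to the median of all genes tested; bars are SE; filled points have an adjusted p under 0.05). Most thymocyte and DN points lie to the right of 0, and most DN1 points to the left of it (over all genes of the set tested, 36 of 43, 30 of 39 and 13 of 45 were above 0).

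Control samples of the 3 populations were also compared, with all arrays taken as independent. Whether an animal gave samples of several populations is not known. Between control DN cells and control thymocytes 2 of 42 genes were called, both lower in DN cells, and none was called higher. In all genes 0.394% were higher and 0.888% lower (86 and 194 genes), a balance that turned with normexp background (1162 and 726) and became 5 and 5 with the slide as a block. An unadjusted p under 0.05 was found for 26.2% of the 42 genes, against 21% of all. Ccr7 was at 0.49, 0.59 and 0.46 in DN cells against 3.86, 4.22, 3.69 and 4.35 in thymocytes, a difference of -3.89 ± 0.46 (14.8-fold lower, limma adjusted p = 0.00206). Ccl27 was at 1.90, 1.93 and 1.86 against 4.77, 3.90, 3.61 and 3.38, a difference of -2.38 ± 0.46 (5.21-fold lower, adjusted p = 0.0462). Neither gene overlapped between the populations. Both were picked as called, so the separation adds no support, and the share of all genes without overlap was not counted. Cxcr3 and Ccl5 were lower by amounts that just missed the threshold (-2.98, adjusted p = 0.0547, and -2.88, adjusted p = 0.0677), and Ccr9 differed by -2.63 (adjusted p = 0.152). The Ccr7 call was lost only without DN control arrays 1 and 2 together (-3.49, adjusted p = 0.122). The Ccl27 call held in 7 of 29 settings and was lost without any 1 of the thymocyte control arrays (adjusted p = 0.0838, 0.108, 0.0867 and 0.0511 for arrays 1 to 4) or DN control arrays 1 and 2 (0.129 and 0.175). Of 8 monocyte markers 4 were called lower in control DN cells (summed level 5.31 to 9.84 against 47.2 to 140), as were 3 of the 6 genes of the CD4 and CD8 stage (163 to 194 against 484 to 1680). Also lower was 1 gene each of the T lineage, conventional and plasmacytoid dendritic cell lists, and 1 of 9 B cell markers was higher. Neutrophil markers had a median difference of -5.62 with none called. The part of these cell types was not tested.

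Between control DN1 and control DN cells 5 of 41 genes were called higher in DN1 cells and none lower. Of all genes 1.1% were called higher and 0.246% lower, and an unadjusted p under 0.05 was found for 39% of the 41 genes, against 20.8% of all. Both comparisons above use the same control DN samples, which the DN treatment comparison uses too, so they are not independent of each other. Ccr7 was at 4.24 and 3.62 in DN1 cells (4.2 ± 0.55 above DN cells, 18.4-fold, limma adjusted p = 0.00676). Cxcr3 was at 5.08 and 4.79 (4.93 ± 0.75, 30.5-fold, adjusted p = 0.012), and Cxcr6 at 5.05 and 5.45 (3.8 ± 0.56, 13.9-fold, adjusted p = 0.0142). These are the receptors of naive and effector lymphocytes. Ccr2 was at -1.18 and -0.78 (4.14 ± 0.73, 17.6-fold, adjusted p = 0.0341). Xcl1, the ligand in the list, was at 2.24 and 3.21 (5.9 ± 1.13, 59.7-fold, adjusted p = 0.0378). In each of the 5, both DN1 arrays lay above all 3 DN arrays. The 5 were picked as called, so the separation adds no support, and the share of all genes so separated was not counted.

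The DN1 group has 2 control arrays, and leaving out either ended all 5 calls. Without array 1 and array 2 the limma adjusted p was 0.143 and 0.0626 for Ccr7, 0.175 and 0.113 for Cxcr3, 0.143 and 0.181 for Cxcr6, 0.236 and 0.267 for Ccr2, and 0.219 and 0.31 for Xcl1. Without DN control array 2 it was 0.0607 for Cxcr3, 0.0588 for Cxcr6, 0.103 for Ccr2 and 0.0857 for Xcl1, and without DN control array 1 it was 0.106 for Xcl1. Without DN control arrays 1 and 2 together no call remained, with differences of 3.83 for Ccr7 (0.107), 3.47 for Cxcr3 (0.298), 3.39 for Cxcr6 (0.174), 4.31 for Ccr2 (0.17) and 3.51 for Xcl1 (0.452). With normexp background Ccr2 differed by 1.75 (adjusted p = 0.444). The summed B cell level was 265 to 484 in control DN1 cells against 41 to 48.2 in control DN cells. The NK cell level was 89 to 92.1 against 9.03 to 15.6 and the conventional dendritic cell level 107 to 191 against 7.71 to 13.3. Monocyte markers summed to 32.5 to 48.5 against 5.31 to 9.84, with 1 of 8 called higher. Of 8 plasmacytoid dendritic cell markers 1 was called higher (172 to 232 against 59.2 to 349). Neutrophil markers had a median difference of 4.18 with 0 called. Of 6 DN2 and DN3 stage genes 1 was called lower (23.3 to 23.9 against 70.6 to 117). The part of these cell types in these differences was not tested.

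Whether the antibody effect itself differed between populations was tested as a difference of differences, again with all arrays taken as independent. Between DN1 cells and thymocytes Cxcr6 differed by -5.26 ± 0.73 (limma adjusted p = 0.0148), the effect being 4.95 in thymocytes and -0.31 in DN1 cells. It was the member called of 45 tested. Ccr2 (-5.48) and Ccr10 (-5.9) missed the threshold, both with an adjusted p of 0.0586. In all genes 0.0263% were called higher and 0.0919% lower in this comparison. By the same test 40% of the 45 genes had an unadjusted p under 0.05, against 6.87% of all genes. Between DN1 and DN cells Cxcr3 differed by -5.98 ± 1.01 (adjusted p = 0.0493), from effects of -1.3 and 4.7, and Ccr7 by -4.37 (adjusted p = 0.0595). Here 0.0698% of all genes were called higher and 0.14% lower, and 20% of the 45 had an unadjusted p under 0.05, against 12.3% of all. Between DN cells and thymocytes limma called no member, and 0.00887% of all genes were called higher and 0.0133% lower. There 9 of 45 members (20%) had an unadjusted p under 0.05, against 8.39% of all genes. Ccr7, called in DN cells and not in thymocytes, differed by 3.43 between them (adjusted p = 0.207), and Cxcr4 by 3.06 (adjusted p = 0.307), so a difference between these populations was not shown.

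The Cxcr6 interaction had a limma adjusted p of 0.0596 without DN1 anti-DLL4 array 3, and of 0.0683 and 0.157 without DN1 control arrays 1 and 2. It was also lost with the slide as a block (0.118), with normexp (0.0895) and in the contrasted groups alone (0.0829). That of Cxcr3 held in 8 of 29 settings, and its adjusted p was 0.175, 0.0596 and 0.105 in these 3 fits. It was further lost without DN1 anti-DLL4 arrays 1 and 3 (0.133 and 0.0525), DN1 control arrays 1 and 2 (0.172 and 0.177), DN anti-DLL4 arrays 1, 2 and 3 (0.106, 0.108 and 0.124) and DN control arrays 1 and 2 (0.0961 and 0.132).

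Several of these genes lie side by side. By the probe positions in the files (build mm8, distinct from the build of the promoters above), 26 of the 45 fall in 7 clusters with neighbouring probes less than 150 kb apart. The probes of Ccr9, Cxcr6, Xcr1, Ccr1, Ccr3 and Ccr2 span 327.2 kb on chromosome 9, from 123629914 to 123957067. The Ccr9 and Cxcr6 probes are 30.3 kb apart. In DN cells Ccr9 was lower by 2.7 while Cxcr6 rose by 3.5, and across the cluster the differences ran from -0.83 to 5.19 in thymocytes, from -2.7 to 3.55 in DN cells and from -4.73 to -0.2 in DN1 cells. Xcr1, 44.6 kb beyond Cxcr6, differed by -0.22, -1.2 and -0.2 in the 3 populations, and Ccr1 by 1.47, 1.46 and -0.77, none of them called.

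**Figure D4:**
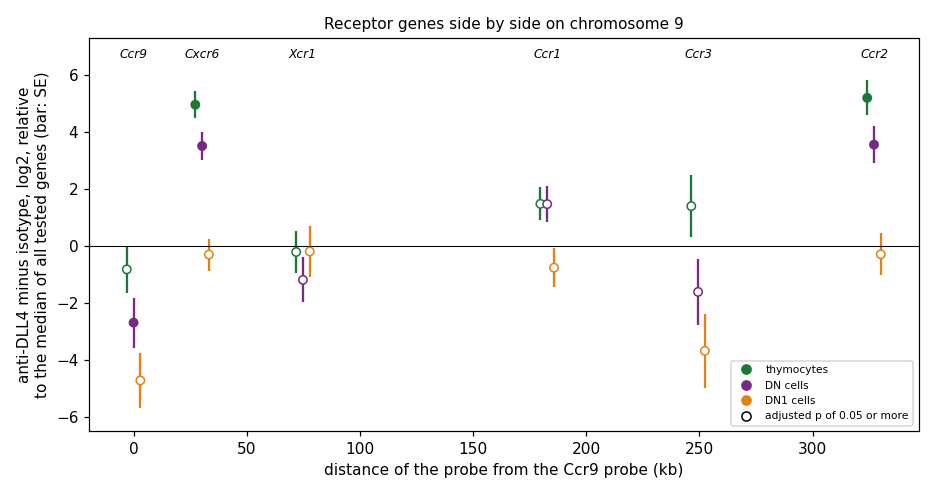
Difference of anti-DLL4 from isotype control (log2, relative to the median of all genes tested; bars are SE; filled points have an adjusted p under 0.05) against the distance of each probe from the Ccr9 probe on chromosome 9; points of 1 gene are set slightly apart. Cxcr6 and Ccr2 are higher in thymocytes and DN cells, and Ccr9, 30.3 kb from Cxcr6, is lower in DN cells.

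The other clusters hold ligands. On chromosome 11, from 83341989 to 83480804, the inflammatory ligands Ccl5, Ccl9, Ccl6, Ccl3 and Ccl4 differed by 1.92 to 4.42 in thymocytes, 2.57 to 3.55 in DN cells and -1.52 to -0.18 in DN1 cells. Of these, Ccl3 was called in thymocytes and Ccl5 in DN cells. The monocyte attractants Ccl2, Ccl7, Ccl12 and Ccl8, with Ccl11, lie at 81853343 to 81932860 of the same chromosome. There the genes tested differed by 1.14 to 4.51 in thymocytes, -3.43 to 1.09 in DN cells and -1.44 to 0.74 in DN1 cells, and none was called. Ccl2, the main ligand of CCR2, was at -0.72, -3.29 and 0.95 against -4.12, -5.89, -4.13 and -6.10 in thymocytes, with no overlap (4.51, limma adjusted p = 0.103). Cxcl9 and Cxcl10, 23.6 kb apart on chromosome 5, differed by 5.18 and 4.38 in thymocytes and by 3.83 and 4.85 in DN cells. Cx3cl1 and Ccl17, 29.6 kb apart on chromosome 8, differed by 4.96 and 1.87 in thymocytes and by 4.75 and 3.69 in DN cells, and neither was called. Cx3cl1 was well above background on 2 of 4 control thymocyte arrays and 1 of 3 control DN arrays. Its unfitted thymocyte difference was -3.17 on slide 1 and 9.32 and 9.97 on the other slides.

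The values of several receptors and their ligands are set side by side here, with no test of a difference between them. Cxcr6 rose, and its ligand Cxcl16, a product of myeloid cells, was at 3.11, 2.93 and 4.09 against 4.21, 2.40, 0.63 and -1.11 in thymocytes, with overlapping groups and a difference of 2.32. In DN cells Cxcl16 differed by 2.06, also without a call, and it was above 0 under all 29 settings in both populations. Ccr7 rose in DN cells, and Ccl19 and Ccl21b differed there by 2.17 and 1.66, in the same direction and without a call. Ccr9 fell in DN cells, and Ccl25 was at 1.09, 0.72 and 1.05 against 3.17, 1.85 and 1.04, a difference of -0.39. Other probes of Ccl25 did not agree in sign.

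Ccr1, Ccr3, Ccr4, Cx3cr1 and Cxcr7, an atypical scavenger of CXCL12, were called in no treatment comparison. Ccr3, an eosinophil receptor, differed by 1.39 in thymocytes, -1.62 in DN cells and -3.69 in DN1 cells (limma adjusted p = 0.663). A further Ccr3 probe gave 1.82, -2.42 and -0.54. Ccr4 in control thymocytes was at 1.68 and 2.75 on arrays 1 and 2 and at -5.48 and -5.44 on arrays 3 and 4, a gap wider than any group difference of the gene. Cx3cr1 differed by 0.37 in thymocytes, while another probe of it gave 3.17 there and -2 in DN cells. Cxcl13, the B cell attractant, differed by -0.15, -0.91 and -0.15 in the 3 populations.

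Other genes of the chemokine system were read from a list of 63 signalling partners, atypical receptors and desensitisers, of which 49 are on the array. In thymocytes 3 were called higher and none lower, and in DN cells 7 higher and none lower, with medians of 0.59 and 1.48. The shares over all genes were 1.14% higher and 0.379% lower in thymocytes, and 2.74% and 1.58% in DN cells. In DN1 cells none was called and the median was 0.02. Blr1, the older name of the follicular homing receptor CXCR5, was higher by 3.26 ± 0.57 in thymocytes (limma adjusted p = 0.0244) and by 5.56 ± 0.61 in DN cells (adjusted p = 0.000417). Rgs1, which shortens chemokine receptor signalling, was higher by 3.96 ± 0.59 (adjusted p = 0.00672) and 4.28 ± 0.63 (adjusted p = 0.00437). In thymocytes the third was the atypical receptor Ccrl2 (4.2, adjusted p = 0.0182). In DN cells the others were Cd74 (3.68), Gng2 (4.18), Ptk2b (3.47), Rgs16 (3.41) and Rgs2 (3.18), of which Rgs16 and Rgs2 are further inhibitors of G protein signalling. Among controls Blr1 and Rgs1 were also higher in DN1 than in DN cells, by 5.96 (adjusted p = 0.00387) and 4.57 (adjusted p = 0.0137). The Blr1 effect differed by -5.92 between DN1 and DN cells (adjusted p = 0.0426). Blr1 and Cd74 are also abundant in B cells, whose marker levels are given above.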

How the data were processed

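RNA of each sample was amplified in 2 rounds and hybridised to a 1-colour Agilent array, per the labels' protocols. The deposited intensity values are the processed signals of Agilent Feature Extraction 9.5 (per the submitters' processing notes; 9.5.3.1 per the file headers), background-corrected and detrended, per the file headers. The authors also deposited a table holding a linear ratio per probe, whose centring is known only from its match to these signals, and it served as an alternative. No column of another series was used (0 found).

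From the intensities, log2 minus the 75th percentile over non-control spots of each array was taken, and each gene was represented by its brightest probe. All 18 arrays entered a limma fit (version 3.58.1, R 4.3.3) with 6 group means and empirical Bayes moderation. Genes were kept when well above background on 2 or more arrays and tested when so on 2 or more arrays of the groups contrasted, with Benjamini-Hochberg adjustment over all genes tested (threshold 0.05). The fit was tested on simulated data. Python 3.11.15 with pandas 2.3.3 and matplotlib 3.10.9 drew the figures. Replicates within a group correlated between 0.818 and 0.964 over genes, lowest among control DN arrays. The number of arrays limits the precision.

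Replicate numbers are shared between groups. Within a population, deviations of same-numbered treated and control samples did not move together, and no block was used. Treated and control samples come from different mice, so this check cannot show whether samples share an animal. Same-numbered samples of different populations were not compared in this way. Named genes are the members called (at most 12 per comparison) and fixed lists of ligands, receptors and partners. The members and all lists were chosen with earlier results of these data known. Labels give 4 control thymocyte samples where the series text lists 3, and all 4 were used. Alternatives changed the scaling, background, dim-probe filter, probe summary, samples in the fit and blocks, or left out arrays. The values of 1 member, which counts and medians of the set include, are not reported here.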

Additional observations from a re-analysis of the deposited data

Results flagged for a closer look

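Among 45 groups of 4 samples, all of them control thymocytes, 2 had a value set apart from the rest by Dixon's criterion, where chance marks about 1 in 20. Ccr3 on control thymocyte array 3 was at -3.96, with the other 3 arrays between -0.34 and 0.28. Cx3cr1 on control thymocyte array 1 was at -3.53, with the others between -4.77 and -4.66. Neither gene was called in thymocytes.

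The antibody effect differed between populations for 2 genes by the limma test of the difference itself. Cxcr6 differed by -5.26 between DN1 cells and thymocytes, and Cxcr3 by -5.98 between DN1 and DN cells. Both rest on 2 control DN1 arrays, and both calls were lost with the slide as a block, with normexp background and in the contrasted groups alone.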

How the results depend on the processing

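No chemokine or receptor gene called changed sign under any of the 29 alternatives (partner and marker genes were not rerun), and Cxcr6 and Ccr2 in thymocytes and Ccr7 in DN cells were called under all of them. The larger moves in the counts of members called were as follows. A setting that is not named may also have changed a count by a smaller amount. In thymocytes, 6 were higher, with 3 to 9 when any array was left out. The 1 lower became 2 with the stricter filter and 0 with the contrasted groups alone, the slide block or the replicate block (0 to 2 with an array left out). In DN cells, 8 were higher, with 2 in the contrasted groups alone, 5 with the slide block, 1 without DN control arrays 1 and 2, and 5 to 11 with an array left out. The 1 lower became 2 with the mean of probes and 0 with the contrasted groups alone, the slide block, the replicate block or without control arrays 1 and 2 (0 to 4 with an array left out). In DN1 cells, 0 lower became 1 with the stricter filter, 2 with the mean of probes, 1 with the deposited ratio table and 0 to 1 with an array left out.

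Between control DN cells and thymocytes, 0 higher became 1 with normexp and 1 with the mean of probes (0 to 2 with an array left out). The 2 lower became 4 with quantile normalization, 5 with normexp, 0 without control arrays 1 and 2, and 1 with the other scaling, no filter, the contrasted groups alone, the slide block or the replicate block (1 to 6 with an array left out). Between control DN1 and DN cells, 5 higher became 9 with quantile normalization, 3 with normexp, 1 with the slide block, and 0 with the contrasted groups alone or without control arrays 1 and 2 (0 to 7 with an array left out; lower, 0 to 2). For DN1 against thymocyte effects, 1 became 2 with quantile normalization and 0 with normexp, the contrasted groups alone or the slide block (0 to 2). For DN1 against DN effects, 1 became 2 with quantile normalization or the mean of probes, and 0 with the other scaling, normexp, no filter, the contrasted groups alone, the slide block, the replicate block or without control arrays 1 and 2 (0 to 4). The cause of these moves was not tested.

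Same-numbered treated and control samples of a population did not move together: the correlations of their deviations were -0.495, 0.072 and -0.261 (thymocytes), -0.281, -0.083 and -0.084 (DN), and 0.11 and -0.153 (DN1). Treated and control samples come from different mice, so these correlations cannot show whether samples share an animal. Whether same-numbered samples of different populations pair was not checked. With the replicate block, the members called were 6 higher and 0 lower in thymocytes and 8 higher and 0 lower in DN cells.

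Over all genes, the number called in DN cells (576 higher and 333 lower) became 931 and 304 with quantile normalization, 213 and 108 with the contrasted groups alone, 286 and 218 with the slide block, and 129 and 5 without control arrays 1 and 2. In thymocytes (240 and 80) it became 106 and 11 with the contrasted groups alone. The DN1 numbers (9 and 13) fell to 0 and 0 under that choice, as under normexp. Quantile normalization moved the median difference of all genes in DN cells from -0.68 to -0.13, and normexp to -1.08, which is why differences are given relative to it. The dim control DN arrays, the 2 control DN1 arrays and the lack of a label tying samples to animals limit what these data can show.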
